A study of Mus musculus with 28 samples.

Results

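The genes described are Cmtm3, Cmtm4, Cmtm6 and Cmtm7, members of the CKLF-like MARVEL transmembrane domain family, and Cd274, which encodes the immune checkpoint ligand PD-L1. They are 5 of the 30608 genes in the deposited table, found by matching Ensembl identifiers to symbols, and 4 of the 5 passed the filter on low values. The members were chosen by name, with the raised Cmtm4 count of exosome-treated libraries already known from these data, so the exosome-treated against untreated values of the members are given as a description, with no test to support them.

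RNA was sequenced from CTLL2, a line of mouse cytotoxic T cells that grows only with interleukin-2 and is labelled as strain C57BL/6. Exosome-treated cells received fresh medium with 0.2 mg/ml exosomes, small secreted vesicles, from B16F0 mouse melanoma cells, and were sampled at 0.5, 2, 4 and 8 h with 3 libraries at each time. Untreated cells received fresh medium alone and were sampled at the same 4 times with 3 libraries each, and at 0 h with 4 libraries. Of the 28 libraries, the sample descriptions put 9 in batch 1, called Set1 here as in the column names, and 19 in batch 2, called Set2. Set1 has 1 library in each of the 9 groups. All groups are 1 cell line, and the design calls the replicates biological.

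CMTM proteins cross the membrane several times and travel between the cell surface and endosomes. In human cells, CMTM6 binds PD-L1, keeps it in the recycling pathway and protects it from ubiquitination and lysosomal breakdown, and CMTM4 can take over this task when CMTM6 is missing. PD-L1 on a cell engages PD-1 on T cells and dampens their activity, and activated T cells can carry PD-L1 themselves. These actions concern protein, which was not measured here.

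In the GENCODE M21 annotation of GRCm38, Cmtm4 (ENSMUSG00000096188.1) lies on the minus strand at chr8:104348191-104395807. Cmtm3 (ENSMUSG00000031875.6) lies on the plus strand at chr8:104339410-104347672, so the 2 genes end toward each other with 518 bases between them. Cmtm6 (ENSMUSG00000032434.8, plus strand, chr9:114731116-114749344) and Cmtm7 (ENSMUSG00000032436.16, minus strand, chr9:114756836-114781856) are a second such convergent pair, 7491 bases apart. Cd274 (ENSMUSG00000016496.7, plus strand) spans chr19:29367455-29388095. The table gives 1 value per gene, so exons and untranslated regions are not separated.

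The RefSeq promoter windows of GRCm38.p6, 250 bases before to 50 bases after the annotated start, matched all 5 genes. The windows of Cmtm4, whose level differed most between exosome-treated and untreated cells, and of its PD-L1 partners Cmtm6 and Cd274 are shown for comparison at chr8:104395758-104396057 (minus strand), chr9:114730953-114731252 (plus strand) and chr19:29367188-29367487 (plus strand). They are written 5′ to 3′ on the strand of the gene. Capitals mark the GC box GGGCGG and the interferon-type repeat GAAANNGAA on either strand, which do not overlap in these windows.
Cmtm4: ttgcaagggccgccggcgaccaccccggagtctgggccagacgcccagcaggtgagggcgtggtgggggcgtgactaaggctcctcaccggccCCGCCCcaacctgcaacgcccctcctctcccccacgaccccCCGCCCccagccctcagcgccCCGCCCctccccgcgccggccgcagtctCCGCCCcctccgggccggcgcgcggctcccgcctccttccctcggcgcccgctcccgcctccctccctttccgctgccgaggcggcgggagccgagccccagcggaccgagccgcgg
Cmtm6: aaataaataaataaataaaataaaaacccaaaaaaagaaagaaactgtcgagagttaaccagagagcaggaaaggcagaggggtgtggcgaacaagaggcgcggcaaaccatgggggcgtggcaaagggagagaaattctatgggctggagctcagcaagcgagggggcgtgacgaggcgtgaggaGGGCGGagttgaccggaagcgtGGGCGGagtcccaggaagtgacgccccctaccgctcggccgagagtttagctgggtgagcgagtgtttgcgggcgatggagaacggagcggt
Cd274: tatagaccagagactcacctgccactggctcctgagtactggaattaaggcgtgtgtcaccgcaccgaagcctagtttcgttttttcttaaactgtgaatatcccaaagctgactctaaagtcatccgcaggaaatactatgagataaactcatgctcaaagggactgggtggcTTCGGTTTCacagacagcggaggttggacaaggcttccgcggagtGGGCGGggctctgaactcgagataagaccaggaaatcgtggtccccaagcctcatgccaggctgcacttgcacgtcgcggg
The Cmtm4 window held 4 GC boxes, the Cmtm6 window 2 and the Cd274 window 1, and 35.7% of 32851 promoter windows of this length held at least 1. The interferon-type repeat was found in the Cd274 window alone among the 5 genes, and in 8.56% of all windows. The Cmtm4 window had 38 CpG dinucleotides and 79.7% G and C, the Cmtm6 window 22 and 55.7%, and the Cd274 window 15 and 52.7%, against medians of 7 and 52.7% over all windows. These are matches of letters only.

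Values are the authors' normalized counts, which are reads per gene divided by 1 size factor per library. Library depth ranged from 6072984 to 24085812 reads. Most T-cell markers were high in every library (Ptprc 23256 to 30462, Gzmb 30625 to 54827 and Cd8b1 854 to 1611 normalized counts). Cd8a was the lowest of that list, at 46.8 to 162. Pdcd1, the gene for PD-1, reached at most 3.98 normalized counts and was at 0 in 15 of 28 libraries, at or near the floor of 3 reads, which is 1.88 to 7.47 normalized counts depending on the library. Among 10 macrophage and dendritic cell markers, Itgax, Cd68 and Cd14 were present at 4940 to 9621, 266 to 544 and 140 to 244 normalized counts. The other 7, among them Lyz2, Csf1r, Adgre1 and C1qa, reached at most 7.47 normalized counts in any library. The summed level of this list was 9037 to 10179 in exosome-treated and 8562 to 10162 in untreated Set2 libraries, and 5703 to 7698 in exosome-treated and 5572 to 8232 in untreated Set1 libraries. In bulk RNA, fewer cells of a type and less RNA per cell cannot be told apart. Of the skeletal muscle transcripts, Ckm (398 to 1042 normalized counts) and Mylpf (105 to 354) were present in all 28 libraries, while Acta1 was above 50 normalized counts in 8, which were exosome 0.5 h replicates 1 and 3, 2 h replicate 2 and 4 h replicates 1 and 2, and untreated 2 h replicate 2 and 8 h replicates 1 and 2.

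Levels of different genes are comparable only per length, given here as normalized counts per kilobase of exon. Cmtm7 was the highest of the 5, with a mean of 1199 per kilobase in exosome-treated and 1209 in untreated cells of the same times, and Cmtm6 followed with 473 in exosome-treated and 458 in untreated cells of the same times. The ranges of Cmtm7, 761 to 1574, and of Cmtm6, 415 to 536 per kilobase over all libraries, did not overlap. Cd274 averaged 50.0 per kilobase in exosome-treated and 53.6 in untreated cells of the same times. Cmtm4 averaged 103 per kilobase in exosome-treated and 47.5 in untreated cells of the same times. In the 16 untreated libraries the ranges of Cmtm4 (38.3 to 55.1 per kilobase) and Cd274 (40.0 to 64.7) overlapped. In untreated Set1 libraries Cmtm4 averaged 44.4 and Cd274 57.5, and in untreated Set2 libraries 49.2 and 51.1. The order of these 2 genes was not tested. In exosome-treated Set2 libraries Cmtm4 averaged 128 per kilobase and Cd274 48.2, and in exosome-treated Set1 libraries Cmtm4 averaged 55.2 and Cd274 53.7. Cmtm3 had 9 reads in all, 7 in exosome-treated and 2 in untreated libraries, with a highest value of 2.09 normalized counts. It lay under the floor of 3 reads in every library, so no difference could be detected at this depth.

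**Figure D1:**
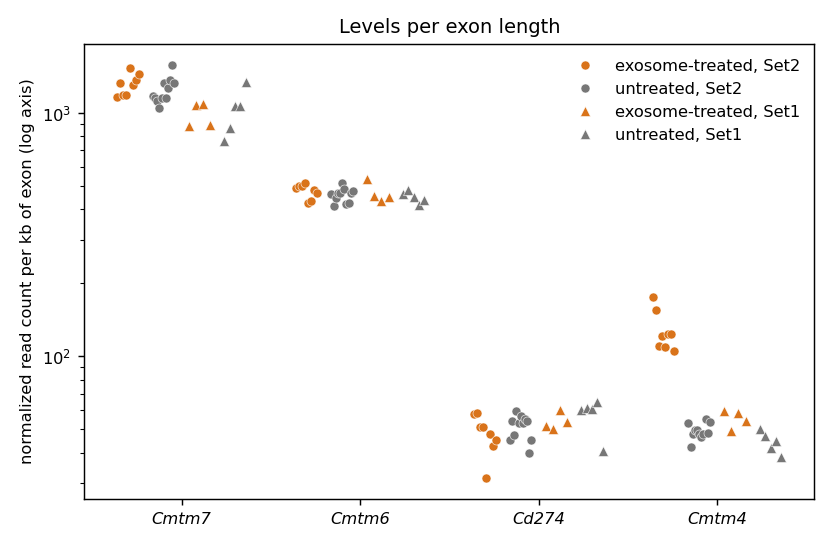
Normalized read count per kilobase of exon (log axis) of the 4 genes that passed the filter, 1 point per library, orange for exosome-treated and grey for untreated cells, circles for Set2 and triangles for Set1. Cmtm7 and Cmtm6 lie apart from the rest, and Cmtm4 lies above Cd274 in the exosome-treated Set2 libraries.

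Cmtm4 was higher with exosomes at all 4 times in both sets, and by more in Set2 than in Set1. At 0.5 h Cmtm4 had 1353 and 1194 normalized counts in exosome-treated Set2 libraries and 458 in the exosome-treated Set1 library, against 385 and 383 in untreated Set2 and 363 in untreated Set1 libraries. At 2 h it had 854 and 935 in exosome-treated Set2 and 379 in exosome-treated Set1 libraries, against 370 and 359 in untreated Set2 and 325 in untreated Set1 libraries. Exosome-treated Set2 libraries thus stood well above every untreated library at these times, while the exosome-treated Set1 library at 2 h lay above the untreated libraries of 2 h but inside the range of all 16. At 4 h Cmtm4 had 840 and 954 in exosome-treated Set2 and 450 in exosome-treated Set1 libraries, against 370 and 426 in untreated Set2 and 347 in untreated Set1 libraries. At 8 h it had 953 and 809 in exosome-treated Set2 and 419 in exosome-treated Set1 libraries, against 373 and 413 in untreated Set2 and 296 in untreated Set1 libraries. The untreated 0 h libraries had 410, 326 and 370 in Set2 and 388 in Set1.

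Over all libraries, 10 of 12 exosome-treated values of Cmtm4 exceeded the highest of the 16 untreated values, 426. Within Set2 the groups did not overlap (809 to 1353 in 8 exosome-treated and 326 to 426 in 11 untreated libraries). Within Set1 the 4 exosome-treated libraries (379 to 458) lay above the 4 untreated libraries of the same times (296 to 363), and 3 of 4 lay above the untreated 0 h library as well. The ratio of exosome-treated to untreated means in Set2 was 3.32 at 0.5 h, 2.46 at 2 h, 2.25 at 4 h and 2.24 at 8 h. In Set1, with 1 library per group, the ratio was 1.26, 1.17, 1.30 and 1.42 at the same times.

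On the log2(normalized count + 1) scale used for all differences below, the mean exosome difference of Cmtm4 over the 4 times was 1.01 ± 0.12 (limma standard error, SE). It was 1.36 ± 0.07 in Set2 and 0.32 ± 0.09 in Set1, which is 2.56-fold and 1.24-fold, and Set2 minus Set1 was 1.04 ± 0.11. Cmtm4 was among the 0.0337% of genes called in that difference between sets, which again was not independent of the choice of members. Over all genes, 0.459% of 14828 were called in the mean exosome difference (adjusted p below 0.05), all of them higher. Cmtm4 was the 1 member called, and since this difference chose the members nothing is read from that count. At 0.5, 2, 4 and 8 h its differences were 1.26, 0.94, 0.91 and 0.94, each ± 0.24.

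**Figure D2:**
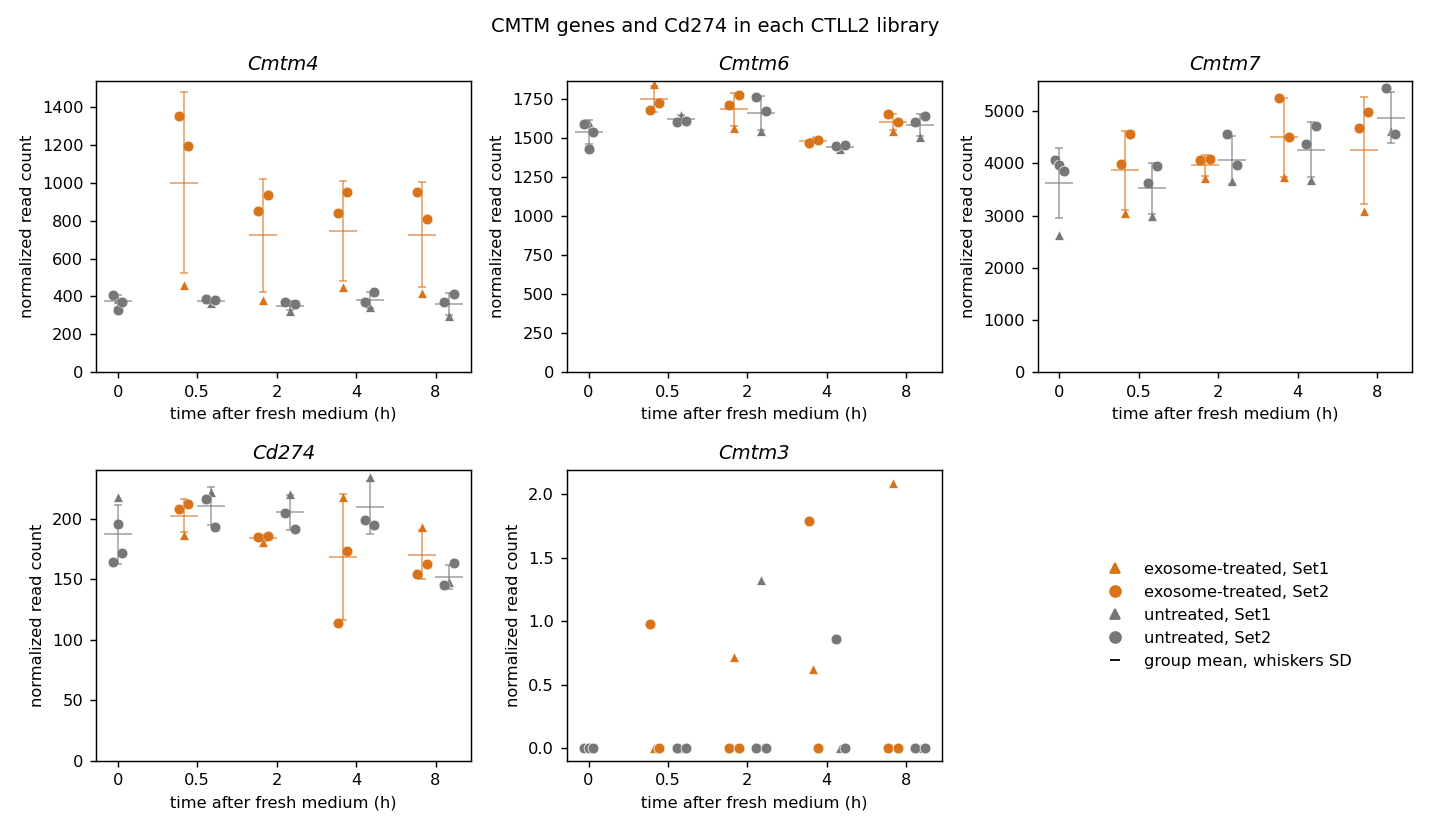
Normalized read counts of each gene by hours after fresh medium, orange for exosome-treated and grey for untreated cells, circles for Set2 and triangles for Set1 libraries, with group means and SD except for Cmtm3. Cmtm4 shows 8 exosome-treated Set2 libraries at 809 to 1353 and the 4 of Set1 at 379 to 458, and the other genes overlap between treatments.

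Cmtm6, the main partner of PD-L1, kept a narrow range. It averaged 1628 ± 122 normalized counts in exosome-treated (SD, n = 12) and 1576 ± 102 in untreated cells of the same times (SD, n = 12), and 2 of 12 exosome-treated values exceeded every untreated one. Its mean exosome difference was 0.05 ± 0.03 (SE), with a 95% interval of -0.02 to 0.11. Set against Cmtm6 in the same library, Cmtm4 had 49.9 to 80.6 normalized counts per 100 of Cmtm6 in exosome-treated Set2 and 24.2 to 30.2 in exosome-treated Set1 libraries. The same ratio was 21.0 to 29.3 in untreated Set2 and 19.7 to 24.3 in untreated Set1 libraries.

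Cmtm7, a family member studied in B-cell receptor and EGF receptor traffic, had no common direction over the times. It averaged 4144 ± 689 in exosome-treated and 4179 ± 657 in untreated cells of the same times (SD, n = 12 each). The mean difference was -0.01 ± 0.05 (SE). At 8 h all 3 exosome-treated libraries (3080 in Set1, 4681 and 4987 in Set2) lay below the untreated mean of their own set (4613 in Set1, 5003 in Set2). The difference was -0.22 ± 0.10, and by set it was -0.58 in Set1, with 1 library per group, and -0.04 in Set2. Untreated 8 h replicates 1 (Set1) and 2 (Set2) were among the libraries with Acta1 above 50. At 0.5 h all 3 lay above it, with a difference of 0.13 ± 0.10.

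Cd274 itself had overlapping values with and without exosomes. At 0.5 h it had 208 and 212 normalized counts in exosome-treated Set2 and 187 in exosome-treated Set1 libraries, against 216 and 193 in untreated Set2 and 222 in untreated Set1 libraries. At 4 h it had 114 and 173 in exosome-treated Set2 and 218 in exosome-treated Set1 libraries, against 199 and 195 in untreated Set2 and 234 in untreated Set1 libraries. The value of 114, from exosome 4 h replicate 1, was the lowest of the 28 and came from the library with the most Acta1, 415 normalized counts. The 4 h difference was -0.36 ± 0.14 (SE) with that library and -0.13 without it. At 2 h Cd274 had 185, 186 and 181 in exosome-treated cells, against 205, 191 and 220 in untreated cells, and at 8 h 154, 163 and 193 in exosome-treated cells, against 145, 163 and 148 in untreated cells. The mean exosome difference over the 4 times was -0.10 ± 0.07, with a 95% interval of -0.25 to 0.04, and -0.04 without exosome 4 h replicate 1.

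**Figure D3:**
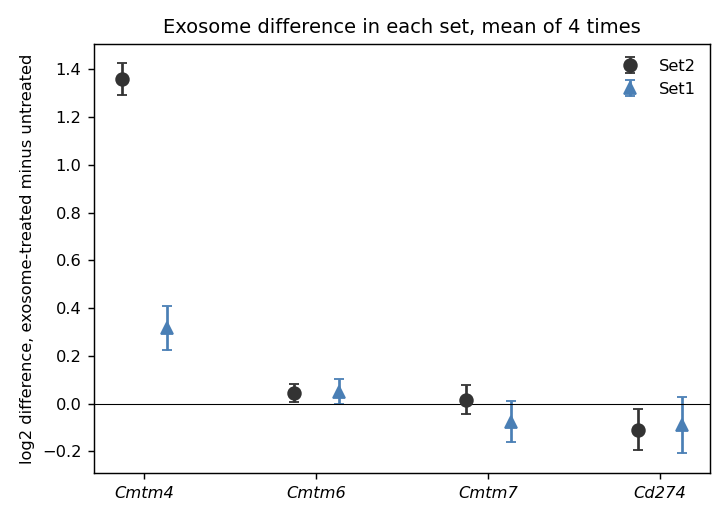
Mean exosome difference over 4 times (log2, exosome-treated minus untreated) for each gene, in Set2 (circles) and Set1 (triangles), with limma standard errors. Cmtm4 stands at 1.36 in Set2 and 0.32 in Set1, and the 3 other genes lie between -0.11 and 0.05 in both sets.

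Several transcripts of the melanocyte lineage were also higher with exosomes. Of 12 such genes 7 were tested and 5 were called higher in the mean exosome difference, where 0.459% of all genes were called. They were Tyrp1, a melanin-synthesis enzyme, Trpm1, Mitf, Dct and Mc1r. Tyrp1, Trpm1, Mitf and Dct averaged 0, 0.554, 0.154 and 2.62 normalized counts in untreated and 38.2, 12.1, 8.70 and 22.9 in exosome-treated libraries. They thus passed the filter on low values through exosome-treated libraries alone, which favours a call of higher. For this reason the share called in this list cannot be weighed against that of all genes. Pmel (0.49 ± 0.21) and the most abundant gene of the list, Gpnmb (0.06 ± 0.12), were not called. The summed level of the 12 was 210 to 346 in exosome-treated and 115 to 175 normalized counts in untreated Set2 libraries. In Set1 the sum was 110 to 184 in exosome-treated and 46.1 to 84.6 in untreated libraries. Tyrp1 had 36.0 to 76.3 normalized counts in exosome-treated Set2 and 13.2 to 18.8 in exosome-treated Set1 libraries, and Tyrp1 and Slc45a2 were at 0 in all 16 untreated libraries. Exosome-treated Set2 libraries were thus higher than those of Set1 for Tyrp1 as well as for Cmtm4. Within Set1 the order depended on the measure. The exosome-treated library with the most Cmtm4 (458, at 0.5 h) had the lowest summed level of the list (110). The one with the largest excess of Cmtm4 over the untreated library of its time (123, at 8 h) had the highest sum (184) and the most Tyrp1 (18.8).

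Cmtm4 above the matched untreated mean was 416 to 969 normalized counts in the 8 exosome-treated Set2 libraries and 54.1 to 123 in the 4 of Set1. Per normalized count of Tyrp1 this excess was 10.3 to 15.4 in Set2 and 3.78 to 7.87 in Set1. The gap between sets was thus larger for Cmtm4 than for Tyrp1, the only gene of the list used as a measure here. The part of melanocyte-lineage transcripts in the Cmtm4 difference was not tested. For the other members that passed the filter, Set2 minus Set1 of the exosome difference was -0.01 ± 0.06 for Cmtm6, 0.09 ± 0.10 for Cmtm7 and -0.02 ± 0.14 for Cd274.

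**Figure D4:**
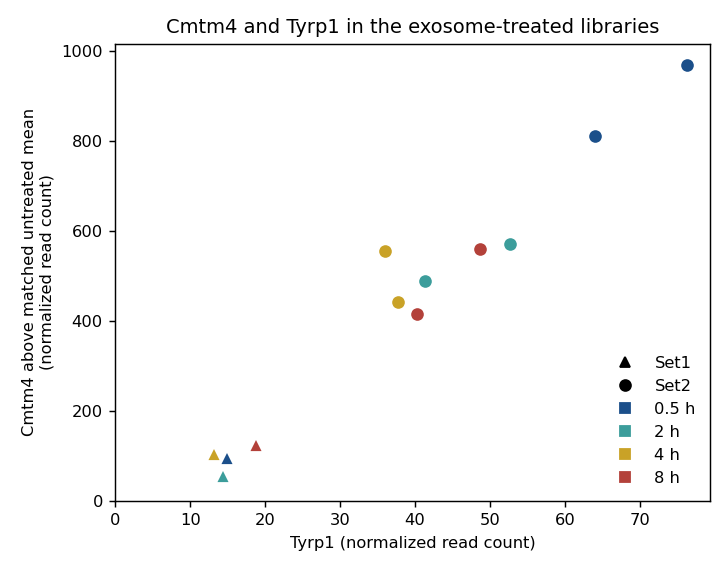
Cmtm4 above the mean of untreated libraries of the same time and set against Tyrp1, both in normalized read counts, for the 12 exosome-treated libraries, with circles for Set2, triangles for Set1 and colours for time. Set1 libraries lie at 54.1 to 123 for Cmtm4 and 13.2 to 18.8 for Tyrp1, and the 2 Set2 libraries of 0.5 h are highest on both axes.

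The genes whose pattern was most like Cmtm4 were taken by Pearson r over 28 libraries of log2 values less the set mean, among 9302 genes with a mean of 100 or more, predicted genes left out. They were Wsb2 (r = 0.94), Sec22c (0.88), Fam168b (0.88), Kif1c (0.83) and Ptpn14 (0.72). These points share the treatment groups and the depth of each library. Wsb2, a substrate receptor of ubiquitin ligases, averaged 2134 normalized counts in exosome-treated and 989 in untreated Set2 libraries, and 1275 in exosome-treated and 910 in untreated Set1 libraries. Sec22c averaged 573 in exosome-treated and 460 in untreated Set2 libraries, and 500 in exosome-treated and 436 in untreated Set1 libraries. For Fam168b, Kif1c and Ptpn14 too the ratio of exosome-treated to untreated means was larger in Set2 than in Set1. Choosing genes by their likeness to Cmtm4 favours such a pattern. None of the 5 lies on chromosome 8.

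Expressed genes beside Cmtm4 had differences close to 0. Within 150 kilobases of it, Dync1li2, Tk2, Cklf, Nae1 and Car7 were tested, with mean exosome differences of 0.03, -0.05, -0.03, -0.03 and 0.06. Cklf, the founding member of the family, averaged 242 normalized counts in exosome-treated and 248 in untreated cells of the same times. Of the other family members in the table, Cmtm2a, Cmtm5 and Cmtm8 reached at most 1.43 normalized counts and were not tested. Beside Cd274, Plgrkt, which starts 64 bases from it on the other strand, had a difference of -0.06, Jak2 of 0.02 and Pdcd1lg2 of -0.00.

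Untreated cells show how these genes moved with time in fresh medium, a comparison the choice of members did not use. Cmtm7 rose by 8 h. It had 5437 and 4570 normalized counts in Set2 and 4613 in Set1 at 8 h, against 4060, 3973 and 3849 in Set2 and 2629 in Set1 at 0 h. All 3 libraries at 8 h lay above all 4 at 0 h, and the share of all genes that separate so was not counted. The difference was 0.47 ± 0.10 (SE), or 1.39-fold, with an adjusted p of 0.00189 in limma. At this time 31.7% of all genes were called, 15.9% higher, so 1 of 4 tested members is close to that background. In 2 of the 3 libraries at 8 h Acta1 stood at 202 and 206 normalized counts. Without the 8 libraries with Acta1 above 50, which leaves 1 untreated library at 8 h, the difference was 0.25 with an adjusted p of 0.259, and 2.73% of all genes were called. The untreated 8 h library without Acta1, replicate 3, had 4570 normalized counts of Cmtm7. A second annotated gene, Gm9888, lies on the opposite strand within Cmtm7, with 40.6 normalized counts in exosome-treated and 41.1 in the 16 untreated libraries.

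Cd274 was lower at 8 h without passing the threshold. It had 145 and 163 normalized counts in Set2 and 148 in Set1 at 8 h, against 164, 195 and 171 in Set2 and 218 in Set1 at 0 h. All 3 values at 8 h were below all 4 at 0 h, but only just, with 163.2 in 8 h replicate 3 and 163.8 in 0 h replicate 2. The values of 145 and 148 came from the 2 libraries at 8 h with Acta1, at 206 and 202. How many of all genes separate in this way was not counted. The difference was -0.31 ± 0.13, with an adjusted p of 0.0748. It was -0.30 with an adjusted p of 0.0296 in a fit of the untreated libraries alone, an alternative added after seeing the data, in which 30.1% of all genes were called. In Set2 alone it was -0.20 with an adjusted p of 0.291. Cmtm4 differed by -0.01 ± 0.22 and Cmtm6 by 0.04 ± 0.06 between 8 h and 0 h. In untreated libraries alone the Cmtm4 difference was -0.05 ± 0.10.

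At 0.5, 2 and 4 h against 0 h, 0 of 4 tested members were called by limma, where 0.189%, 1.83% and 1.19% of all genes were, and edgeR and DESeq2 also called 0. At an unadjusted p below 0.05 Cmtm7 alone passed, at 2 h (0.21 ± 0.10, adjusted p = 0.324) and at 4 h (0.28 ± 0.10, adjusted p = 0.212), where 14.0% and 11.7% of all genes passed. Its untreated means over 0, 0.5, 2, 4 and 8 h were 3628, 3520, 4061, 4261 and 4873 normalized counts, and those of Cd274 were 187, 210, 205, 209 and 152. Cmtm6 means stayed between 1444 and 1659, and Cmtm4 means between 351 and 381.

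**Figure D5:**
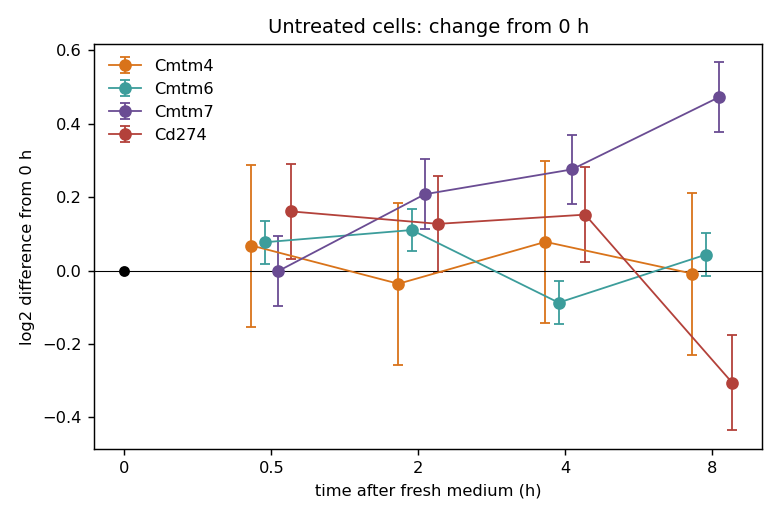
Log2 difference of untreated cells at 0.5, 2, 4 and 8 h from 0 h, with limma standard errors, for the 4 genes that passed the filter. Cmtm7 reaches 0.47 and Cd274 -0.31 at 8 h, and Cmtm6 and Cmtm4 stay within 0.11 of 0.

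Among exosome-treated cells alone, Cmtm4 was lower at 8 h than at 0.5 h in Set2. It had 953 and 809 normalized counts at 8 h, against 1353 and 1194 at 0.5 h in Set2, and 419 at 8 h against 458 at 0.5 h in Set1. The fit over all 28 libraries gave -0.40 ± 0.24 with an adjusted p of 0.382, and -0.72 without exosome 0.5 h replicate 1, -0.20 without exosome 0.5 h replicate 2 and -0.23 without exosome 8 h replicate 1. With Set2 libraries alone it was -0.53 ± 0.11 with an adjusted p of 0.00489, where 14.2% of 14309 genes were called. Cmtm4 was chosen with its raised count in exosome-treated libraries known, so neither fit was independent of that choice. Over all libraries limma called 0 of 4 members, as did edgeR and DESeq2, and 2.33% of all genes. At an unadjusted p below 0.05 Cmtm6 alone passed, with -0.13 ± 0.06, where 18.2% of all genes did. Cd274 differed by -0.25 ± 0.14 and Cmtm7 by 0.12 ± 0.10.

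The sets differed in untreated cells for 1 member. Cmtm7 averaged 3514 ± 762 normalized counts in Set1 (SD, n = 5) and 4281 ± 517 in Set2 (SD, n = 11), with a difference of -0.32 ± 0.06 (SE) and an adjusted p of 0.000748 in limma. With 44.2% of all genes called between sets, 1 of 4 members is below that background. Cmtm4 averaged 344 ± 35.3 in Set1 and 380 ± 28.04 in Set2, a difference of -0.15 ± 0.07 with an adjusted p of 0.104. Cd274 differed by 0.16 ± 0.07 (adjusted p = 0.0794) and Cmtm6 by -0.03 ± 0.04 (adjusted p = 0.606). The calls of Cd274 and Cmtm4 changed when single untreated libraries were left out, with adjusted p from 0.031 to 0.236 and from 0.0288 to 0.372.

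Genes around PD-L1 were followed in 5 lists chosen with earlier results known. They hold other CMTM genes (1 of 6 tested), PD-1 axis partners (2 of 4), regulators of PD-L1 protein turnover (17 of 18), of its transcription (15 of 16) and of endosome recycling (10 of 10). In the mean exosome difference limma called 0 genes in all 5 lists, against 0.459% of all genes. At an unadjusted p below 0.05, 2 transcription genes were higher and 1 lower, and no gene of the other lists passed, where 4.54% of all tested genes did. edgeR called 0 in the 5 lists, and DESeq2 called 1 transcription gene, higher, among 78 of all genes. Bcl3, an NF-kB cofactor that can raise PD-L1 transcription, had the smallest p of that list. It averaged 448 ± 76.9 normalized counts in exosome-treated and 361 ± 49.9 in untreated cells of the same times (SD, n = 12 each), a difference of 0.30 ± 0.08 (SE) with a limma adjusted p of 0.131. Myc differed by -0.08 ± 0.03. Median differences were -0.01 for turnover, 0.03 for transcription and -0.01 for recycling genes, against -0.00 over all tested genes. The other PD-1 ligand, Pdcd1lg2, averaged 187.3 in exosome-treated and 186.6 in untreated cells of the same times, and Cd80, which also binds PD-L1, 264 in exosome-treated and 254 in untreated cells of the same times.

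Several of these genes differed between times in untreated cells. Untreated 8 h replicates 1 and 2 had Acta1 at 202 and 206 normalized counts, and the part of this in the differences was not tested. At 8 h against 0 h, 5 of 17 turnover genes rose and 2 fell, 1 of 15 transcription genes rose and 4 fell, and 3 of 10 recycling genes rose, against 15.9% of all genes higher and 15.8% lower. Zdhhc9, a palmitoyltransferase that acts on PD-L1, averaged 470 ± 79.2 at 8 h and 673 ± 134 at 0 h (SD, n = 3 and 4), a difference of -0.55 ± 0.11 with a limma adjusted p of 0.00168. It was also called lower at 2 h (-0.42) and 4 h (-0.54). The other calls of these lists before 8 h were Myc at 0.5 h (0.37) and Jun (-0.64) and Irf2 (-0.43) at 2 h. Over all genes, 0.189%, 1.83% and 1.19% were called at 0.5, 2 and 4 h. Trappc4, a trafficking protein that helps PD-L1 recycle, rose by 0.46 ± 0.10, and Cdk4, which acts on the ligase adaptor SPOP, by 0.33 ± 0.08. Gsk3b, a kinase that marks PD-L1 for breakdown, fell by 0.40 ± 0.13. Among transcription genes Jun, Stat3 and Jak1 fell by 0.29, 0.25 and 0.23. Lamp1, a lysosomal membrane protein, rose by 0.40 ± 0.09, and the endosome genes Rab5c and Ehd1 rose by 0.30 and 0.18. Of these 5 lists, 0 genes were called by limma at 8 h without the 8 libraries with Acta1, where 1 untreated 8 h library remains. In exosome-treated cells at 8 h against 0.5 h, Zdhhc9 was the 1 gene of the 5 lists called by limma, against 2.33% of all genes, and DESeq2 called 3. Zdhhc9 had 583 ± 142 at 8 h and 778 ± 152 at 0.5 h (SD, n = 3 each), a difference of -0.43 ± 0.12 and a limma adjusted p of 0.04996.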

How the data were processed

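Per the submitters' processing notes, the build was GRCm38.p2 and the tools included STAR 2.4.2 and featureCounts 1.5.0, with CASAVA 1.8.4, R 3.3.2 and DESeq2 also named. The strand setting and annotation release are not stated there, so reads of a gene and an antisense partner cannot be told apart. The deposited signal, from its values, is counts divided by 1 size factor per library. Whole reads were recovered for 100% of values (within 0.01 read). Floors cover counting error only, and intervals of differences rest on the spread between libraries.

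Limma 3.58.1 (R 4.3.3) was fitted to log2(normalized count + 1) of the 14828 genes at 10 or more in at least 3 libraries, with 1 mean per group and a set term over 28 libraries (18 residual degrees of freedom), and Benjamini-Hochberg adjustment over all genes. The set difference in untreated cells was fitted on those 16 libraries, and set-specific exosome differences in a fit with set by treatment. Alternatives were edgeR 4.0.16 and DESeq2 1.42.0 on recovered reads, other pseudocounts (0.5 and 5), no filter, no set term, a replicate block, Set2 alone and libraries left out. The limma code was tested on simulated data.

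Members and lists were chosen with earlier results of these data known. Named were the 5 members, the called genes of each list that changed most (up to 4), or its 2 genes of lowest p if it had no call, and the 5 genes most like Cmtm4 and Cd274. Of the list symbols, 3 were not matched in the table, and the values of 1 transcription gene are not reported here.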

Additional observations from a re-analysis of the deposited data

Results flagged for a closer look

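The exosome difference of Cmtm4 differed between sets by 1.04 on the log2 scale (Set2 minus Set1, 1.36 in Set2 and 0.32 in Set1). In the limma fit with an interaction term, 5 of 14828 genes (0.0337%) were called, Cmtm4 among them. Members were chosen with the raised Cmtm4 count of exosome-treated libraries known, so nothing is read from that call. With 8 exosome-treated libraries in Set2 and 4 in Set1, Set1 has 1 library per group, and set cannot be told apart from whatever else differed between the batches.

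The Cmtm7 value of 2629 normalized counts in untreated 0 h replicate 1, the Set1 library, lay far from the other 3 at 0 h (3849 to 4060). This check was made for the 4 genes that passed the filter, in untreated 0 h alone, the only group with 4 libraries. For each gene, chance gives such a value in about 5% of groups whose libraries are alike. Here the library is the only one of Set1, and Cmtm7 was lower by 0.32 (log2) in untreated Set1 than Set2 libraries.

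Exosome-treated libraries changed sides of the untreated mean of their set between times for Cmtm7, with all 3 below it at 8 h and all 3 above it at 0.5 h, a difference of -0.35 (log2, 8 h minus 0.5 h). Cd274 had all 3 above it at 8 h and all 3 below it at 2 and 4 h, differences of 0.32 (8 h minus 2 h) and 0.52 (8 h minus 4 h). Some libraries lay almost at the mean. At 8 h the log2 differences of Cmtm7 were -0.58 in Set1 and -0.10 and -0.005 in Set2. Those of Cd274 at 8 h were 0.39 in Set1 and 0.004 and 0.08 in Set2. For Cd274 at 4 h they were -0.78 in exosome 4 h replicate 1, -0.18 in the other Set2 library and -0.11 in Set1. The differences between times were not tested.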

How the results depend on the processing

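The mean exosome difference of Cmtm4 was 0.96 to 1.09 with each library left out in turn. The 1 member called at 8 h against 0 h in untreated cells became 0 with no set term (Cmtm7 0.44, adjusted p = 0.0903) and 0 without the Acta1 libraries, became 2 with untreated libraries alone, and ranged from 1 to 2 with single libraries left out. The 1 member called between sets became 2 without the Acta1 libraries, where 5641 of all genes were called. It ranged from 1 to 2 with single libraries left out, and where it was 2, from 5710 to 6723 of all genes were called. At 8 h against 0.5 h in exosome-treated cells, 1 member was called in Set2 alone, where 14.2% of all genes were. That member was Cmtm4, and the comparison was not independent of its choice. PD-L1 transcription genes called in the mean exosome difference numbered 1 with DESeq2 and 1 in Set2 alone, where 78 and 84 of all genes were called. With single libraries left out they numbered 0 to 1. The 1 came without untreated 4 h replicate 2 or without exosome 4 h replicate 2, where 72 and 71 of all genes were called. Differences near 0 changed sign. Cmtm4 at 8 h against 0 h was 0.096 in Set2 alone and 0.080 without the Acta1 libraries. With single libraries left out it ranged from -0.12 to 0.19 at 8 h, -0.12 to 0.27 at 0.5 h, -0.20 to 0.17 at 2 h and -0.071 to 0.28 at 4 h. Cmtm6 between sets was 0.0048 without the Acta1 libraries. Cmtm7 at 0.5 h against 0 h was 0.0037 with the replicate block, 0.0031 without the Acta1 libraries and -0.071 to 0.034 with single libraries left out. The cause was not tested. Replicate numbers do not pair the libraries (r above 0.1 in 3 of 12 exosome-treated and untreated pairs), and with them as a replicate block the Cmtm4 mean difference was 1.01 and no member's call changed. Genes called over the whole table at 8 h against 0 h in untreated cells numbered 4702, against 3712 with the replicate block, 1834 with no set term, 2360 and 2112 without untreated 8 h replicate 1 or 2, and 398 without the Acta1 libraries. Cmtm3 is below the reach of this depth.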

Other observations

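Across the 28 libraries, on log2 values less the set mean, Cmtm7 and Cd274 ran in opposite directions (Pearson r = -0.58, Spearman rho = -0.41), and r was -0.53 without exosome 4 h replicate 1. Cmtm4 and Cd274 had r = -0.07, and Cmtm4 and Cmtm6 r = 0.32. The points share treatment, time and library.

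The genes most like Cd274 by the same measure were Mical2 (r = 0.81), Dock10 (0.80), Nckap1l (0.79), Nav1 (0.78) and Zfp398 (0.78). Without exosome 4 h replicate 1, the lowest library for Cd274, r was 0.78, 0.75, 0.73, 0.72 and 0.71. Dock10, a guanine nucleotide exchange factor, averaged 7814 normalized counts in exosome-treated and 8014 in all untreated cells, 0 h included, and Nckap1l, a subunit of the WAVE complex in blood cells, 4648 in exosome-treated and 4659 in those untreated cells.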
